A study of Homo sapiens with 6 samples.

Results

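The 36 genes described here encode aminoacyl-tRNA synthetases, the enzymes that load each tRNA with its amino acid. They were taken by name from a table of 26485 gene symbols, and all 36 were found, 20 of them for cytosolic enzymes or subunits and 16 for mitochondrial enzymes. The names are older symbols, so that WARS, for example, is now WARS1. GARS and KARS each encode both a cytosolic and a mitochondrial form and were counted with the cytosolic enzymes. RNA was sequenced from H9, an established human T lymphoma cell line labelled as a cutaneous T lymphocyte line, in 3 libraries from cells given 1 µM PA4 for 24 h and in 3 control libraries from cells given the vehicle DMSO for 24 h. PA4 is a code name, and the series title speaks of a berbamine derivative. The comparison asks which transcripts differ under a compound described by the submitters as killing lymphoma cells, and it covers 1 cell line at 1 dose and 1 time. No label states that the replicates were separate cultures. The p-values therefore measure the spread between these libraries, which may be technical.

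Each synthetase activates its amino acid with ATP and transfers it to the matching tRNA, and the cytosol and the mitochondrion mostly use separate enzymes encoded by separate nuclear genes. In mammals, several cytosolic synthetases sit together in a multisynthetase complex held by scaffold proteins, while the rest act outside it. Uncharged tRNA activates the kinase GCN2, which phosphorylates eIF2 and favours translation of the transcription factor ATF4. ATF4 is known to induce many cytosolic synthetase genes and few of the mitochondrial ones.

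Library totals were 18282212 to 22875191 counts with PA4 and 19033853 to 19260434 counts in control. The T cell genes CD3E, CD3D, CD3G and LCK had at least 1824 counts in every library. Counts were 6 to 12 for CD4 and 0 or 1 for CD2. Summed counts of 10 T cell markers were 15604 to 20226 with PA4 and 16474 to 17469 in control. Of 4 pluripotent stem cell markers, looked at because another line bears the same name, the summed counts were 0 to 2 with PA4 and 1 to 2 in control, with NANOG and SOX2 at 0 throughout. Summed counts were 6 to 17 with PA4 and 6 to 11 in control for 4 myeloid markers, and 16 to 26 with PA4 and 12 to 20 in control for 4 fibroblast markers. They were 205 to 262 with PA4 and 182 to 224 in control for B cells, nearly all from CD79A, and 166 to 219 with PA4 and 193 to 232 in control for natural killer cells, nearly all from NKG7. Epithelial markers summed to 2591 to 3199 counts with PA4 and 2567 to 2603 in control, of which EPCAM gave 2387 to 3022. Relative to library size (CPM), EPCAM had 134, 133 and 135 CPM in PA4 replicates 1 to 3, against 124, 126 and 129 CPM in control replicates 1 to 3, higher in every PA4 library, with an unadjusted p of 0.0382 and an edgeR adjusted p of 0.933. NKG7 had 10.4, 9.52 and 9.1 CPM with PA4, against 12, 11.6 and 10.1 CPM in control, with groups that overlapped, an unadjusted p of 0.049 and an edgeR adjusted p of 0.943. No other marker had an unadjusted p under 0.05, and the part of these genes' sources in the results was not tested. In these bulk libraries, fewer cells of a kind and less RNA per cell cannot be told apart.

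All 36 genes passed the filter on low counts. Levels are given as TPM, a share of the library's transcripts that divides counts by gene length so that genes can be compared, or as CPM, a share of the library's counts that compares libraries for 1 gene. Summed over the class, the cytosolic genes had 5204.6 ± 21.2 TPM with PA4 and 5079.4 ± 82.4 TPM in control (SD, n = 3 each), and the mitochondrial genes had 730.4 ± 5.42 TPM with PA4 and 734.4 ± 2.97 TPM in control (SD, n = 3 each). In control, the cytosolic sum was 6.92 times the mitochondrial sum.

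The highest cytosolic level belonged to NARS, the asparaginyl enzyme, at 668 ± 13.6 TPM with PA4 and 656 ± 42.3 TPM in control (SD, n = 3 each). WARS, the tryptophanyl enzyme, came second, at 580 ± 21.3 TPM with PA4 and 533 ± 11 TPM in control. KARS, GARS and IARS, for lysine, glycine and isoleucine, followed at 517 ± 7.92, 449 ± 15.3 and 371 ± 9.87 TPM in control. These 5 genes kept ranges over the control libraries that did not overlap with those of their neighbours in the order. The table gives WARS 2968 bases, KARS 2193 and GARS 2749, against 6358, 4065 and 4152 exon bases in GENCODE release 29. The order of these levels therefore depends on the length used. TARS, EPRS, MARS, FARSB and YARS came next, between 235 and 287 TPM in single control libraries, and each of them overlapped with the next. RARS overlapped with DARS, and LARS with FARSA. Near the low end stood SARS, the seryl enzyme, which also charges the selenocysteine tRNA, at 77.4 ± 1.13 TPM with PA4 and 77.1 ± 1.09 TPM in control, and CARS, the cysteinyl enzyme, at 32.3 ± 0.684 TPM with PA4 and 30.3 ± 0.409 TPM in control.

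Among mitochondrial genes IARS2, for isoleucine, stood highest, at 206 ± 0.433 TPM with PA4 and 213 ± 10.2 TPM in control (SD, n = 3 each). CARS2, for cysteine, followed at 93.2 ± 1.62 TPM with PA4 and 88.6 ± 1.99 TPM in control, and RARS2, for arginine, at 67.1 ± 2.44 TPM with PA4 and 63.3 ± 1.7 TPM in control. The place of CARS2 rests on a length of 1909 bases in the table, against 10460 exon bases in GENCODE release 29. The other mitochondrial genes lay below 50 TPM in control, down to PARS2, for proline, at 14.7 ± 0.434 TPM with PA4 and 14.9 ± 0.902 TPM in control. YARS2, NARS2, TARS2, MARS2 and EARS2 formed a run in which each control range overlapped with the next, as did HARS2 with AARS2 and FARS2 with WARS2. The valyl pair was left out of this order. The table gives VARS a length of 26616 bases and VARS2 one of 22404 bases, against 6081 and 8448 exon bases in GENCODE release 29, so their TPM of 17.4 ± 0.306 with PA4 and 17.8 ± 1.38 in control for VARS, and 2.56 ± 0.0917 with PA4 and 2.76 ± 0.0667 in control for VARS2, are low by construction. With exon lengths of that release for every member, the ratio of the class sums in control was 6.0 in place of 6.92.

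Cytosolic genes stood above their mitochondrial partners for every amino acid but 1. All ratios of TPM given here use the table's lengths. The ratio was widest for tryptophan, where WARS over WARS2 was 33.0 ± 2.36 with PA4 and 31.0 ± 1.21 in control (SD, n = 3 each). The table gives WARS 2968 bases and WARS2 2835, against 6358 and 3847 exon bases in GENCODE release 29. It gives FARS2 1841 bases against 4835, so which pair is widest depends on the length used. For asparagine, NARS over NARS2 was 16.1 ± 0.335 with PA4 and 15.4 ± 0.562 in control. IARS over IARS2 was the narrowest ratio above 1, at 1.79 ± 0.0076 with PA4 and 1.74 ± 0.0377 in control. The cysteine pair ran the other way, with CARS over CARS2 at 0.346 ± 0.0123 with PA4 and 0.343 ± 0.00768 in control. The table gives CARS2 a length of 1909 bases and CARS one of 5654, against 10460 and 10037 exon bases in GENCODE release 29. In CPM, without length, CARS had 69.8 ± 1.6 CPM with PA4 and 65.6 ± 1.31 CPM in control, and CARS2 had 68.1 ± 1.3 CPM with PA4 and 64.7 ± 1.83 CPM in control, so the order of that pair rests on the length.

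**Figure D1:**
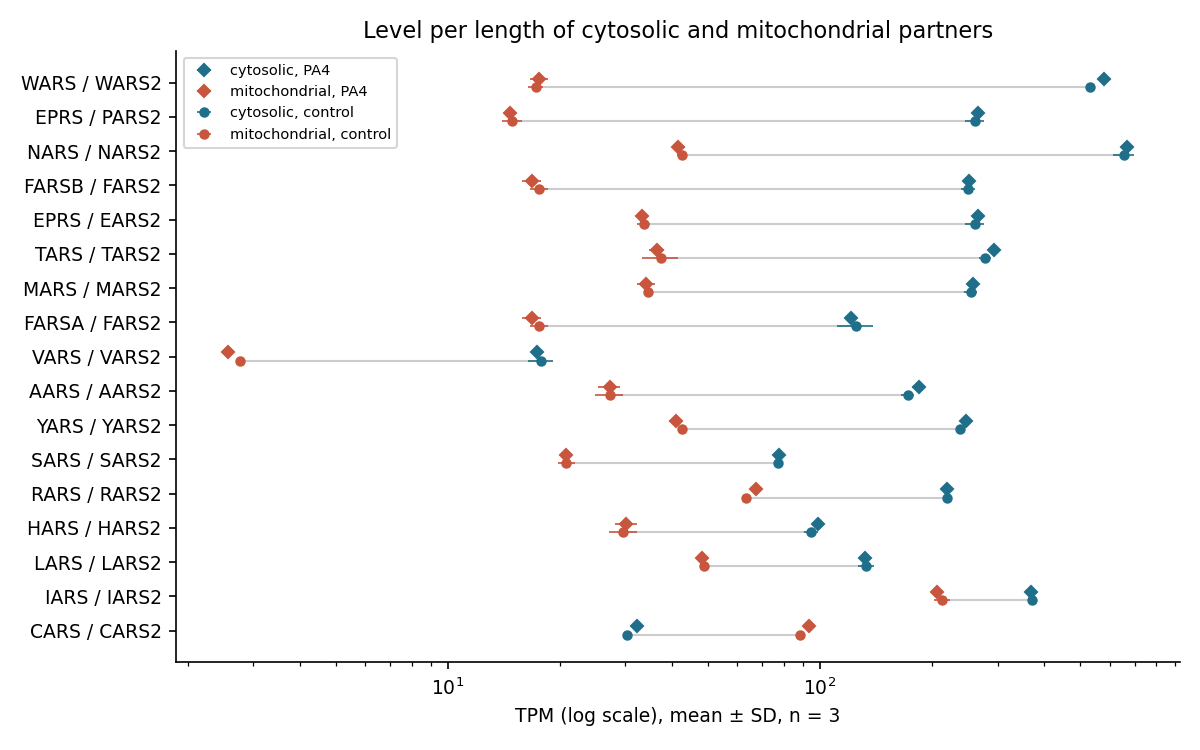
Level per length of each cytosolic gene and its mitochondrial partner for the same amino acid, as mean TPM with SD over 3 libraries on a log axis, with diamonds for PA4 and circles for control. The cytosolic gene lies to the right in every row except CARS with CARS2, and PA4 and control points of a gene lie close together throughout.

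None of the 36 genes passed the test across all genes. In edgeR's quasi-likelihood test with Benjamini-Hochberg adjustment, 0 synthetase genes were called at an adjusted p under 0.05, where 28 of 12107 tested genes, or 0.231%, were called. DESeq2 and limma-voom also called 0 of the 36. At an unadjusted p under 0.05, 4 were higher with PA4, namely WARS, GARS, TARS and AARS, all cytosolic, and 0 were lower. Over all tested genes, 2.69% were higher and 2.6% lower at that unadjusted p. The 4 genes are 4 of the 20 cytosolic genes, and 11.1% of the 36.

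The measurements bounded the size of any difference between these libraries closely. The intervals rest on the spread between libraries, which may be technical. For each of the 36 genes, both ends of the 95% interval were less than 1.25-fold from equality, and this held for 71.7% of all tested genes and for 95.6% of those at 10 CPM or more. Among cytosolic genes 14 log2 fold changes were positive and 6 negative, with a median of 0.015 and a range of -0.064 to 0.12. Among mitochondrial genes 4 were positive and 12 negative, with a median of -0.017 and a range of -0.11 to 0.086. The median over all tested genes was -0.0040.

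**Figure D2:**
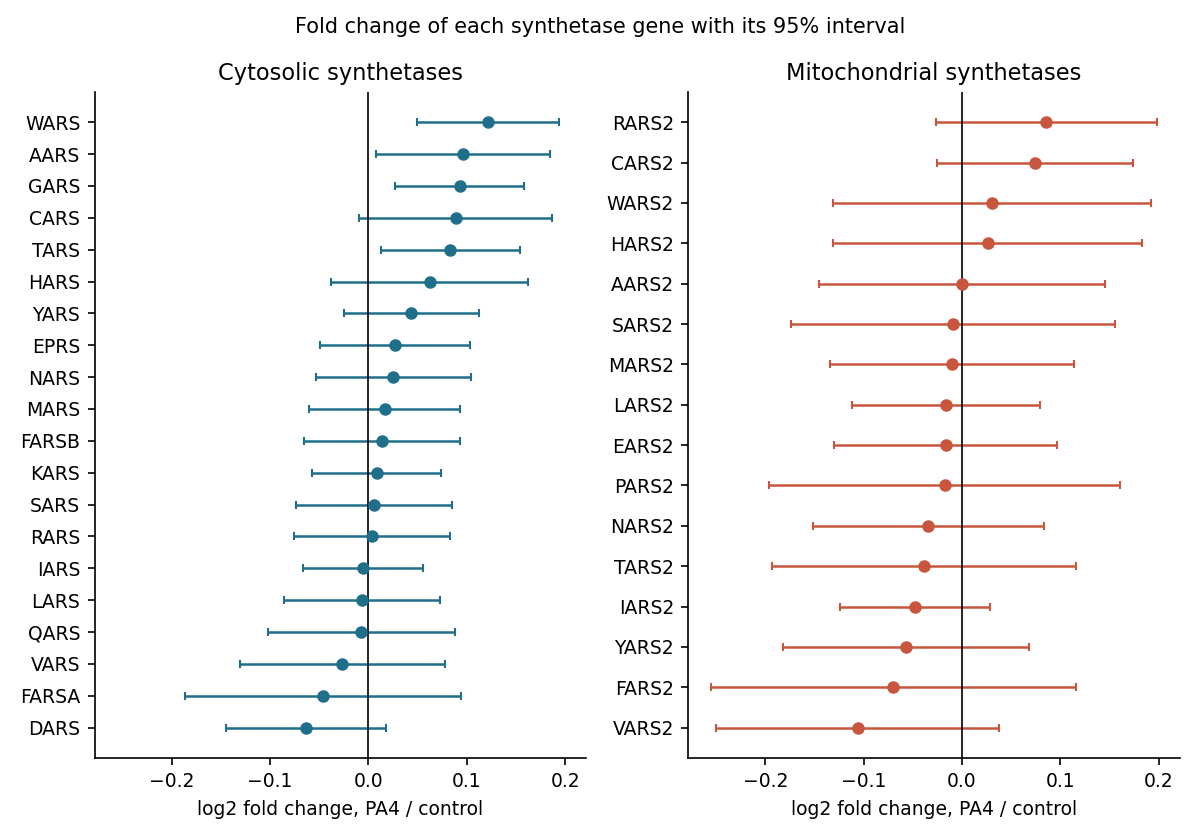
Log2 fold change of PA4 over control for the 20 cytosolic and the 16 mitochondrial genes, with bars for the 95% interval from edgeR. The intervals of WARS, AARS, GARS and TARS lie above 0, and those of the other 32 genes include 0.

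WARS had the largest fold change of the 36 and the smallest unadjusted p. The gene, at chr14:100333790-100376327 on GRCh38, is known for its strong induction by interferon gamma as well as by ATF4. It had 683, 659.9 and 630.2 CPM in PA4 replicates 1 to 3, against 622, 600.03 and 592 CPM in control replicates 1 to 3. Every PA4 library lay above every control library. The fold change was 1.088, or 0.12 ± 0.03 log2 (SE), with an unadjusted p of 0.00243 and an edgeR adjusted p of 0.359. The adjusted p was under the threshold in 5 of 14 alternative settings, among them 0.0416 with no low-count filter, 0.0321 without control replicate 1, and 0.00626 with offsets corrected for GC content. It lay between 0.261 and 1.0 without any other single library, and at 0.294 by DESeq2 and 0.322 by limma-voom. The log2 fold change kept its sign in all 14, between 0.095 and 0.15. In GENCODE release 29, 287 exon bases of WARS, 4.51% of them, overlap WDR25 on the opposite strand. Its mitochondrial partner WARS2 had 19.7, 17.9 and 19.7 CPM with PA4, against 19.3, 17.7 and 18.9 CPM in control, and the groups overlapped.

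GARS, at chr7:30594735-30634033, makes glycyl-tRNA in both compartments, and inherited changes in it cause a peripheral neuropathy. It had 500.7, 505 and 503 CPM in PA4 replicates 1 to 3, against 457, 475 and 483 CPM in control replicates 1 to 3. The PA4 libraries spread by 2.09 CPM (SD, n = 3) and all lay above the control libraries, which spread by 13.2 CPM (SD, n = 3). The log2 fold change was 0.093 ± 0.031 (SE), with an unadjusted p of 0.00844 and an edgeR adjusted p of 0.677. Across 14 alternative settings its unadjusted p was at most 0.037, and it was called in 1 of them. The other gene that serves both compartments, KARS, differed less, with 435.8 ± 9.04 CPM with PA4 and 433 ± 5.21 CPM in control (SD, n = 3 each) and an interval of -0.057 to 0.074 log2.

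TARS, the threonyl enzyme, lies at chr5:33440696-33468091. It had 350.4, 358 and 356 CPM in PA4 replicates 1 to 3, against 324, 335 and 345 CPM in control replicates 1 to 3, so the groups did not overlap. The log2 fold change was 0.083 ± 0.033 (SE), with an unadjusted p of 0.0227 and an edgeR adjusted p of 0.848. The unadjusted p was 0.0517 to 0.0846 without PA4 replicate 2, PA4 replicate 3, control replicate 1 or control replicate 2. Its partner TARS2 had 37.4, 40.8 and 38.1 CPM with PA4, against 45.1, 37.6 and 36.9 CPM in control, and control replicate 1 alone lay above every PA4 library.

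AARS, the alanyl enzyme, which also edits mischarged tRNA, lies at chr16:70252298-70289506. It had 246, 233 and 226 CPM in PA4 replicates 1 to 3, against 232, 216 and 212 CPM in control replicates 1 to 3. Control replicate 1 lay above PA4 replicate 3, so the groups overlapped. The log2 fold change was 0.096 ± 0.042 (SE), with an unadjusted p of 0.0357 and an edgeR adjusted p of 0.920, and the unadjusted p was 0.200 without PA4 replicate 1. It was above 0.05 also without PA4 replicate 2, control replicate 2 or control replicate 3, at 0.0581, 0.126 and 0.0903. AARS2 had 50.3, 53.0 and 45.9 CPM with PA4, against 54.4, 49.6 and 45.4 CPM in control, a log2 fold change of -0.0001 ± 0.069 (SE).

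**Figure D3:**
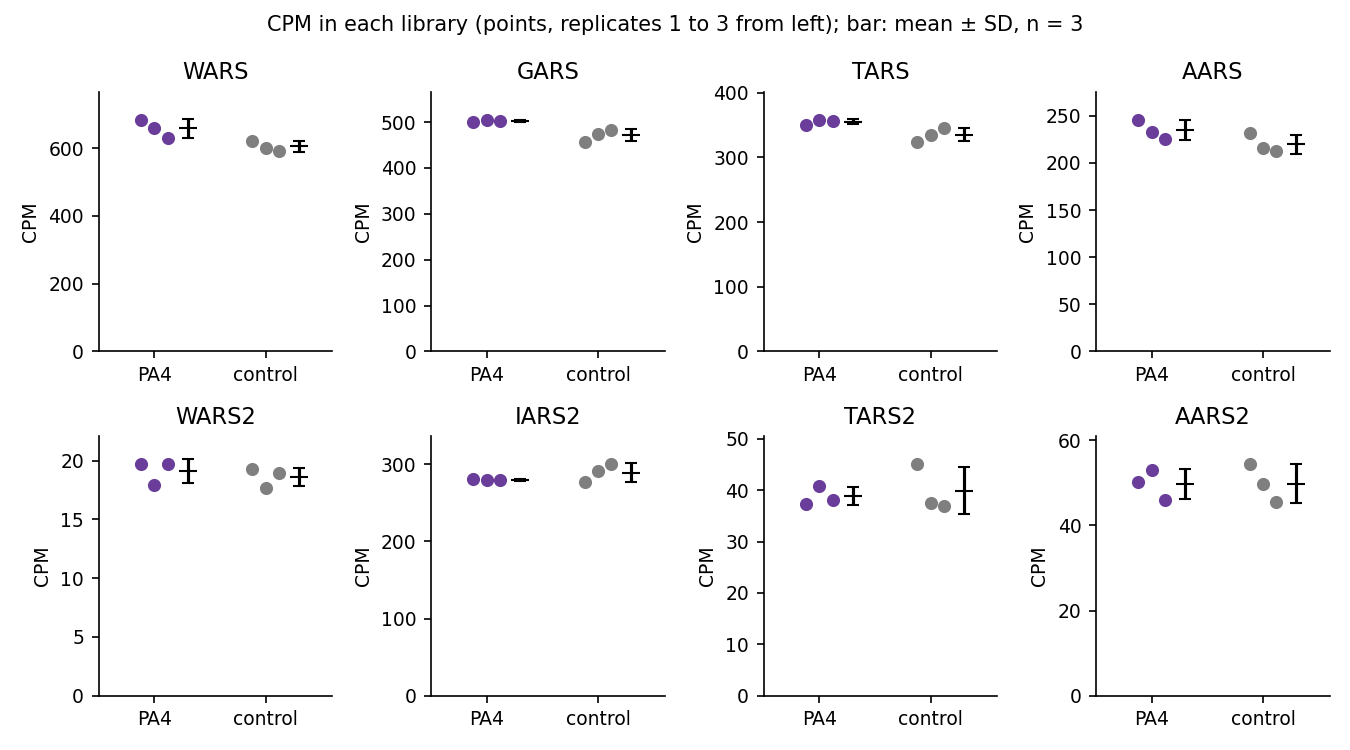
CPM in each library for the 4 cytosolic genes with an unadjusted p under 0.05 (top) and for 4 mitochondrial genes (bottom), PA4 left of control, with points for replicates 1 to 3 and a bar for the mean and SD (n = 3). The PA4 points lie above all control points for WARS, GARS and TARS, and the groups overlap in the other 5 panels.

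Promoter windows of these genes are shown because ATF4 and interferon act on synthetase genes through known elements. Windows were the 250 bases before each RefSeq transcription start on GRCh38.p14, and 16 cytosolic and 14 mitochondrial genes had at least 1 window. The C/EBP-ATF response element was searched as TGATGNAA on both strands and was found in 3.14% of 35116 windows of that length. It was present in a window of 3 cytosolic genes, AARS, GARS and IARS, and of 1 mitochondrial gene, YARS2. Some genes, GARS among them, had 2 windows, so counts of genes are not directly comparable with shares of windows. The GARS match precedes its second RefSeq start, at 30594878, and lies inside the gene, which starts at 30594735. The interferon elements GAS, searched as TTCNNNGAA, and ISRE, searched as GAAA, any 2 bases and GAAA, were found in 6.57% and 3.02% of windows. Both were present in the window of WARS that precedes its second RefSeq start, at 100375347. These 2 matches also lie inside the gene, which is on the minus strand and starts at 100376327. In TARS, GAS was present in both windows. GAS was also found for PARS2 and WARS2, and ISRE for EARS2. The sterol element TCACNCCAC, found in 0.883% of windows, was in 0 windows of synthetase genes, and the E-box CACGTG, found in 6.34%, was in windows of IARS, EARS2 and MARS2. A match of letters is a description of the window and no evidence of binding. In the sequences that follow, read 5′ to 3′ on the strand of the gene, capitals mark the match.
AARS, chr16:70289675-70289704, minus strand, C/EBP-ATF element: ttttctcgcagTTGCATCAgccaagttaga
GARS, chr7:30594834-30594863, plus strand, C/EBP-ATF element: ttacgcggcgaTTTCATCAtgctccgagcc
IARS, chr9:92293698-92293727, minus strand, C/EBP-ATF element: cccgcattttcagcgcgTTGCATCAcctcc
YARS2, chr12:32756076-32756105, minus strand, C/EBP-ATF element: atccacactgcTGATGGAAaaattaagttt
WARS, chr14:100375470-100375499, minus strand, GAS: gctcaagtgtTTCTGAGAAtctgggtgatt
WARS, chr14:100375383-100375412, minus strand, ISRE: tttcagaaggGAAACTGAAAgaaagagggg
TARS, chr5:33440446-33440695, plus strand, GAS in the whole window before the start at 33440696: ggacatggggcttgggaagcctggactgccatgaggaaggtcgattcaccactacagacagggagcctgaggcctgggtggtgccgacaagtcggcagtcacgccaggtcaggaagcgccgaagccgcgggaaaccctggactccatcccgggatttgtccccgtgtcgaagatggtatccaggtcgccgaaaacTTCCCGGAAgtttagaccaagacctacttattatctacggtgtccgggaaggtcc
Of the members with a C/EBP-ATF match, AARS had a log2 fold change of 0.096 with an interval of 0.0073 to 0.185, and GARS one of 0.093 with an interval of 0.027 to 0.16. IARS had one of -0.0057 with an interval of -0.067 to 0.055, and YARS2 one of -0.057 with an interval of -0.18 to 0.068. None of the 4 was called by edgeR, and the differences between them were not tested.

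The cytosolic enzymes of the multisynthetase complex differed little between the groups. EPRS, the joint glutamyl and prolyl enzyme, had 508, 508 and 511 CPM in PA4 replicates 1 to 3, against 472, 502 and 524 CPM in control replicates 1 to 3. The PA4 values lay inside the range of the control values. IARS had 670.2, 661 and 666 CPM with PA4, against 652, 674 and 679 CPM in control, again with PA4 inside the range of control. LARS, the leucyl enzyme known as a leucine sensor for mTORC1, had an interval of -0.086 to 0.073 log2, and MARS, QARS and RARS, for methionine, glutamine and arginine, had log2 fold changes of 0.017, -0.0071 and 0.0038. DARS, the aspartyl enzyme, had the lowest fold change of the cytosolic genes, -0.064 ± 0.038 log2 (SE), with 248.6, 243.7 and 257.4 CPM with PA4, against 248.4, 268 and 267 CPM in control. The 8 genes together had 2774.2 ± 12.2 CPM with PA4 and 2774.5 ± 47.7 CPM in control (SD, n = 3 each), and their median log2 fold change was -0.0009.

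The 12 cytosolic genes outside the complex, which include the 4 named above, had a median log2 fold change of 0.053, with 10 positive and 2 negative. This split was written after the table had been seen, and values of the 12 are not independent of those 4. Their summed CPM was 3634.5, 3589.5 and 3568.5 in PA4 replicates 1 to 3, against 3435.1, 3452.6 and 3467.3 in control replicates 1 to 3. Every PA4 library lay above every control library, by a ratio of means of 1.042. Of these 12 genes, 5 had PA4 libraries all above the control libraries, the 3 already given with CARS and YARS, and 0 had them all below, where 5.91% of all tested genes lay wholly higher and 5.31% wholly lower. CARS had 71.4, 68.2 and 69.7 CPM with PA4, against 65.9, 66.7 and 64.2 CPM in control, with an interval of -0.0097 to 0.19 log2. YARS, the tyrosyl enzyme, whose fragments act as cytokines, had 298, 292 and 289 CPM with PA4, against 288, 281 and 283 CPM in control, with an interval of -0.025 to 0.11 log2.

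The others outside the complex overlapped between the groups. NARS had 730.0, 719.7 and 745 CPM with PA4, against 673, 728 and 756 CPM in control, and the control values spread more widely than the PA4 values. FARSA and FARSB, the subunits of the phenylalanyl enzyme, were at -0.046 ± 0.066 and 0.014 ± 0.038 log2 (SE). FARSA had 88.3, 86.5 and 81.5 CPM with PA4, against 97.6, 90.0 and 77.2 CPM in control, the widest relative spread of any of the 36 genes in control, 11.7% of its mean. HARS, the histidyl enzyme and a known autoantigen in myositis, was at 0.062 ± 0.047 log2 (SE), and SARS at 0.0057 ± 0.037 log2 (SE). VARS, which binds the elongation factor complex, had 179, 180.4 and 173 CPM with PA4, against 198, 176 and 169 CPM in control.

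**Figure D4:**
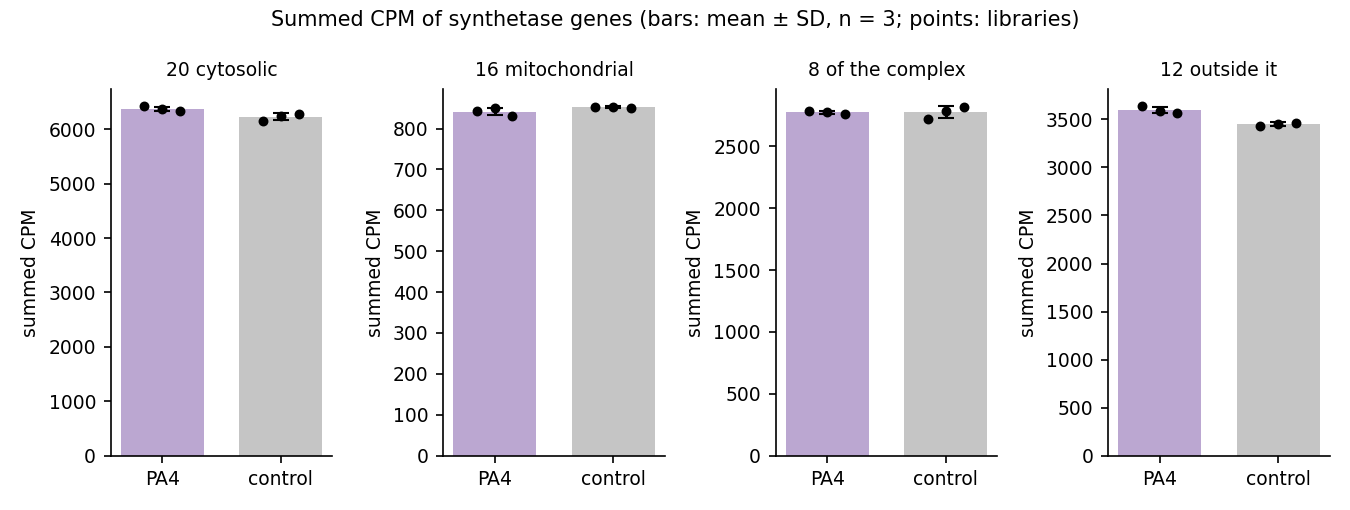
Summed CPM of the 20 cytosolic genes, the 16 mitochondrial genes, the 8 cytosolic genes of the multisynthetase complex and the 12 outside it, PA4 left of control, with bars for the mean and SD of 3 libraries and points for the libraries. The PA4 points lie above the control points for the cytosolic sum and for the 12 genes outside the complex, and the groups overlap for the other sums.

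The cytosolic genes were also divided by what is known of ATF4, again after the table had been seen. The 13 genes commonly listed as ATF4 targets, which include WARS, GARS, TARS and AARS, had a median log2 fold change of 0.027. The other 7 had a median of 0.0038. The listed targets summed to 4873 ± 33.0 CPM with PA4 and 4721.5 ± 60.0 CPM in control (SD, n = 3 each), while the other 7 summed to 1498.7 ± 14.5 CPM with PA4 and 1504.7 ± 12 CPM in control. Within the 13, EPRS, IARS, LARS, MARS, NARS, SARS and VARS had log2 fold changes between -0.026 and 0.027.

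None of the mitochondrial genes had an unadjusted p under 0.05 in edgeR's test, 0 of 16 in either direction. Over all tested genes, 2.69% were higher and 2.6% lower at that p. RARS2 had 45.6, 48.8 and 46.5 CPM in PA4 replicates 1 to 3, against 43.5, 44.1 and 45.3 CPM in control replicates 1 to 3, a log2 fold change of 0.086 ± 0.053 (SE). CARS2, which also makes persulfides, had 68.1, 69.3 and 66.7 CPM with PA4, against 66.6, 64.5 and 62.9 CPM in control, a log2 fold change of 0.074 ± 0.047 (SE). In both genes the PA4 libraries lay above the control libraries. VARS2 had 22.9, 21.7 and 21.3 CPM with PA4, against 23.8, 23.1 and 24.0 CPM in control. It alone of the 36 had every PA4 library below every control library, at -0.11 ± 0.07 log2 (SE) and an edgeR unadjusted p of 0.137. Over all tested genes, 5.91% lay wholly higher and 5.31% wholly lower with PA4. VARS2 shares 22.0% of its exon bases with GTF2H4 in GENCODE release 29.

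The most abundant mitochondrial gene, IARS2, had 281, 279 and 279 CPM with PA4, against 276, 291 and 300.2 CPM in control. The PA4 libraries spread by 1.21 CPM (SD, n = 3), while the control libraries spread by 12 CPM (SD, n = 3). NARS2 had 39.3, 39.0 and 41.8 CPM with PA4, against 40.0, 41.1 and 41.8 CPM in control. Of the rest, FARS2 and YARS2, for phenylalanine and tyrosine, had log2 fold changes of -0.070 and -0.057, and LARS2, MARS2, EARS2, PARS2 and SARS2, for leucine, methionine, glutamate, proline and serine, lay between -0.018 and -0.0093. HARS2 was at 0.026 ± 0.074 log2 (SE). Its start lies 85 bases from that of HARS on the opposite strand of chromosome 5, and the genes share 437 exon bases in GENCODE release 29, so reads there could not be told apart if counting ignored strand, which the sources used here do not state.

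Side by side, the cytosolic class stood slightly higher with PA4 and the mitochondrial class at about the level of control. The cytosolic sum was 6419, 6366.7 and 6329.3 CPM in PA4 replicates 1 to 3, against 6158.2, 6235.9 and 6284.4 CPM in control replicates 1 to 3. The PA4 libraries all lay above the control libraries, with a ratio of means of 1.023. The mitochondrial sum was 843, 849.8 and 832 CPM with PA4, against 853, 853 and 849 CPM in control, and PA4 replicate 2 lay within the control range. The ratio of means was 0.988. The cytosolic median log2 fold change exceeded the mitochondrial one by 0.032. Between replicate libraries, the SD of that difference was 0.0202 log2. Without GARS and KARS the cytosolic median was 0.015 and the ratio of sums 1.021, and without WARS they were 0.014 and 1.016. Without WARS the cytosolic sums nearly met in CPM, at 5699 or more with PA4 and at most 5692.2 in control, and they overlapped in TPM, at 4621.9 to 4626.7 with PA4 and 4454.9 to 4638.7 in control. These sums are descriptions, with no test.

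Within the control group, the synthetase genes varied with base composition. Control replicate 1 over control replicate 3, as a log2 ratio, ranged from -0.17 for NARS to 0.34 for FARSA. That was wider than any log2 fold change of PA4 over control among the 36. The widths are not like for like, since 1 ratio rests on 2 single libraries and the other on 3 against 3. Control replicates 1 and 3 also differed most of all library pairs (chi-square over its degrees of freedom 6.81). Spearman's rho between the control ratio and the GC content of the transcript was 0.784 across the 36 genes and 0.650 across 11438 tested genes. Genes are not independent replicates, and these ratios share the 2 libraries. For the log2 fold change of PA4 over control, rho was -0.177 across the 36. With GC-corrected offsets, chosen after the data were seen, WARS stood at 0.12 log2, GARS at 0.089, AARS at 0.094 and TARS at 0.081, with edgeR adjusted p-values of 0.00626, 0.0836, 0.143 and 0.120. The part of GC content in the other differences was not tested.

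**Figure D5:**
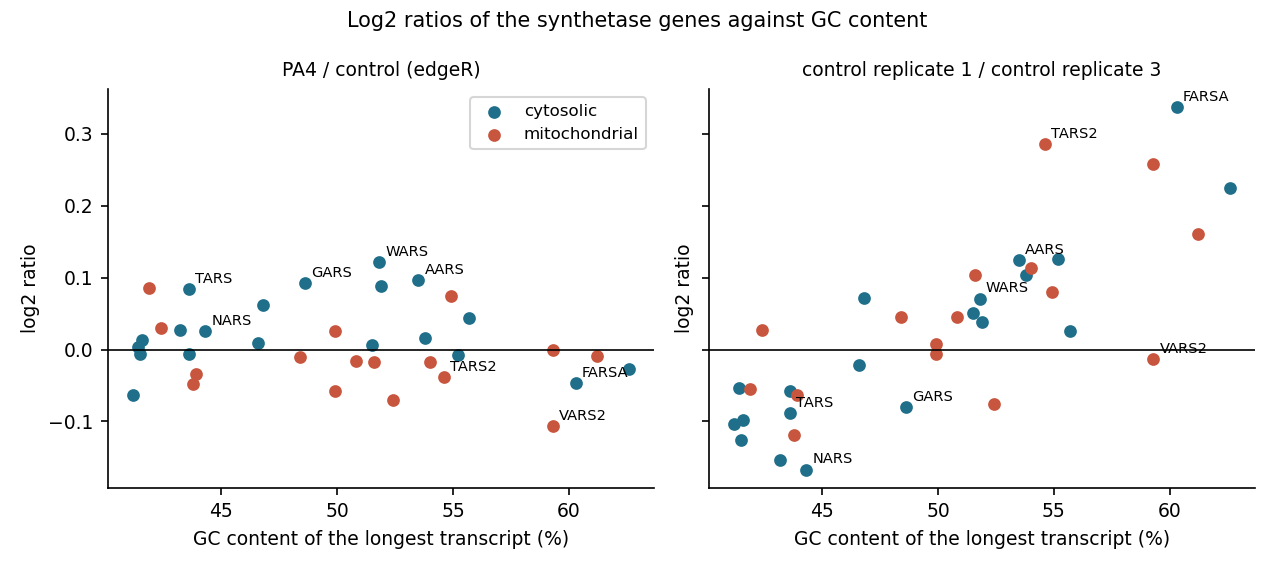
Log2 ratio of each synthetase gene against the GC content of its longest transcript, for PA4 over control (left) and for control replicate 1 over control replicate 3 (right), with cytosolic and mitochondrial genes in different colours. The ratio between the control libraries climbs with GC content, from -0.17 for NARS to 0.34 for FARSA, and the PA4 ratio, with a rho of -0.177, shows no such climb.

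Companion genes were taken in 11 lists, of tRNA and translation factors, amino acid stress and the interferon gamma response. Of their 133 tested genes, edgeR called 0. An unadjusted p under 0.05 was reached by 7 with PA4 higher and by 4 with PA4 lower. Over all tested genes, 2.69% were higher and 2.6% lower at that p. The 7 higher were 6 ATF4 targets and PPP1R15A, and none came from the tRNA and translation lists. The scaffold genes of the multisynthetase complex, AIMP1, AIMP2 and EEF1E1, had log2 fold changes of -0.033, -0.086 and -0.11, each with an interval that included 0. The makers of mitochondrial glutaminyl-tRNA and formylmethionyl-tRNA, GATB, GATC, QRSL1 and MTFMT, all had positive values, from 0.036 to 0.072, and none had an unadjusted p under 0.05. Among 6 genes for charging and use of the selenocysteine tRNA, 0 reached that p in either direction, with a median of 0.0088. Cytosolic elongation factors, with EEF1A1 and EEF2 among them, had a median of 0.0047 over 6 genes and a range of -0.011 to 0.019, and 9 mitochondrial translation factors a median of 0.0064. Of the 6 tested proofreading and hydrolase genes, DTD2 was at -0.16 ± 0.07 log2 (SE). It had 25.4, 24.4 and 25.3 CPM with PA4, against 26.1, 29.8 and 27.9 CPM in control.

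For the sensors and targets of amino acid stress, edgeR called no gene, against 0.231% of all tested genes. An unadjusted p under 0.05 was reached by 7 of these genes, each higher with PA4, and these are the 7 already counted above. Over all tested genes, 2.69% were higher and 2.6% lower at that p. EIF2AK4, the gene of GCN2, had 54.3 ± 2.72 CPM with PA4 and 55.6 ± 1.06 CPM in control (SD, n = 3 each). Of 16 tested genes of uncharged-tRNA sensing and eIF2 control, 1 was higher at an unadjusted p under 0.05, PPP1R15A, which restores eIF2 activity, with 10.1, 9.91 and 10.8 CPM with PA4, against 9.11, 9.15 and 7.82 CPM in control. Of 27 tested ATF4 targets other than synthetases, edgeR called 0. The unadjusted p was under 0.05 for 6 with PA4 higher, or 22.2%, and 0 with PA4 lower, beside the 2.69% and 2.6% of all tested genes, and their log2 fold changes had a median of 0.044 over all 27. The ATF4 targets were listed from background knowledge with earlier results of these data known. The smallest p-values were those of SLC7A11, the cystine transporter, at 0.37 ± 0.09 log2 (SE), TRIB3 at 0.23 ± 0.07, ASNS, which makes asparagine, at 0.11 ± 0.04, and SLC7A5, a transporter of large neutral amino acids, at 0.15 ± 0.05, with edgeR adjusted p-values of 0.247, 0.425, 0.574 and 0.714. ATF4 itself had 340.0 ± 6.19 CPM with PA4 and 344 ± 10.1 CPM in control.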

How the data were processed

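The deposited table holds raw counts of reads per gene symbol, with 1 column per library and no pooling, and the authors' gene length in bases. Per the submitters' processing notes, Trimmomatic 0.39, fastp 0.23.2, STAR 2.7.9a, featureCounts of Subread 1.6.4 and the build hg38 were used, while neither annotation, strand setting nor treatment of multiply aligned reads is given in the sources used here.

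From the counts, R 4.3.3 and edgeR 4.0.16 gave the test. The default filterByExpr left 12107 genes, library sizes were scaled by TMM, and a quasi-likelihood fit of all 6 libraries without covariates (glmQLFit, glmQLFTest) tested PA4 over control on both sides. Benjamini-Hochberg adjustment ran over these 12107 genes, and an adjusted p under 0.05 was a call. Standard errors and 95% intervals come from the F statistic. CPM use TMM-scaled library sizes, and TPM use the table's lengths. The script was tested on simulated data. Alternatives were 2 other scalings, no filter, DESeq2 1.42.0, limma-voom (limma 3.58.1), a replicate block, each library left out, and GC-corrected offsets. No pair of libraries looked like 1 library deposited again (chi-square over its degrees of freedom 1.48 to 6.81).

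The members and lists were chosen with earlier results of these data known, and the split of cytosolic genes by complex and by ATF4 was written after the table had been seen. Values in every library are given for members at an unadjusted p under 0.05, for the 2 highest and the 1 lowest levels per length in each class, for their partners, and for some others named after their values were seen. Of 140 companion entries 139 matched a symbol and 133 passed the filter, and up to 4 a list were named by p. Coordinates and promoter windows are from RefSeq on GRCh38.p14, and overlaps and GC content from GENCODE release 29. Pseudogenes named for some members are not rows of the table, and how reads from such copies were counted was not tested.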

Additional observations from a re-analysis of the deposited data

How the results depend on the processing

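The count of called genes, 28 in all and 0 among the synthetases, was 62 and 1 with no low-count filter, 59 and 1 with the replicate block, 101 and 1 with GC-corrected offsets, and 133 and 2 with both corrected offsets and the block, the last 2 chosen after the data were seen. It was 17 to 74 and 0 to 1 when 1 library was left out, reaching 74 when control replicate 1 was left out, 17 for control replicate 2 and 18 for PA4 replicate 1. The synthetase called in each case was WARS, with an adjusted p of 0.0464 with the replicate block and 0.00209 with the block and corrected offsets, where GARS joined it at 0.0386. At an unadjusted p under 0.05, against 4 higher and 0 lower, corrected offsets gave 1 lower, both together 2 lower, and leaving out 1 library 2 to 4 higher, with 2 without PA4 replicate 2 or control replicate 2, and 0 to 2 lower. The cytosolic median of 0.015 was 0.018 to 0.032 without 1 library, the mitochondrial median of -0.017 was -0.031 to 0.0036, positive without PA4 replicate 3, and their difference was 0.020 to 0.058. The causes were not tested. The ratio of class levels was 7.31 in CPM and 6.0 with GENCODE lengths, against 6.92. Same-numbered libraries deviated from their group means with correlations of 0.047, -0.0092 and 0.17, and PA4 replicate 2 correlated better with control replicate 1 than with its own number, so the numbers were not taken as pairs.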

Other observations

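Besides WARS, 13 genes of the interferon gamma response were tested. Of these, 3 had positive and 10 negative log2 fold changes, with a median of -0.035. IRF1, a transcription factor induced by interferon gamma, was at -0.0054 ± 0.039 log2 (SE).

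In the tRNA-making lists, XPOT, which exports tRNA from the nucleus, had 460.5 ± 8.5 CPM with PA4 and 451 ± 23.0 CPM in control (SD, n = 3 each). Of 23 tested genes of tRNA end processing, splicing and export, 1 was lower at an unadjusted p under 0.05, KIAA0391, the nuclease subunit of mitochondrial RNase P, at -0.11 ± 0.05 log2 (SE). Of 20 genes of RNA polymerase III and its factors, 1 was lower at that p, GTF3C1, at -0.092 ± 0.041 log2 (SE). PSAT1, a serine synthesis gene among the ATF4 targets, had 0 or 1 count in every library and was not tested.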
